A study of Mus musculus with 8 samples.

Results

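Potassium channel genes were taken as all genes on the array whose symbol starts with Kcn, which gave 92 genes in 21 subfamilies out of 19928 genes tested. Of these, 89 code for protein and 3 (Kcnd3os, Kcnmb4os1 and Kcnmb4os2) are long noncoding RNAs that lie beside channel genes. Members entered by symbol alone, with no threshold on their values. Earlier results of these data were known, among them those of Kcnmb3 and Kcnd3. The shares of genes called below are therefore not those of a family picked blind. The genes came from 95 transcript clusters, because Kcna2, Kcnh8 and Kcnma1 each had a second cluster, and the cluster with the highest mean was kept for each.

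The mRNA abundance was measured in olfactory mucosa of 8 neonatal mice at postnatal day 3 on a mixed 129 x C57BL/6J background, with 1 array per mouse. The 4 conditional knockouts (cKO) were 123Cre:Lhx2(fl/fl) mice, and the 4 littermate controls were 2 Lhx2(fl/+) mice (controls 1 and 2) and 2 123Cre:Lhx2(fl/+) mice (controls 3 and 4). Every mouse therefore carried at least 1 floxed Lhx2 allele, and 2 of the controls also carried Cre. Cre driven by the 123 promoter starts in immature olfactory sensory neurons (OSNs) and deletes exons at the start of the Lhx2 gene, which encodes a LIM-homeodomain factor, but it acts in only part of the OSNs, so the tissue is a mixture of deleted and intact neurons and of other cell types. Each array title opens with an A or a B, of unstated meaning. Controls 1 and 2 and cKO 2 have B and the others A, so letter and control genotype cannot be told apart among the controls. Replicate numbers only name the arrays. Because whole tissue was sampled, fewer cells of a type and less RNA per cell cannot be told apart, and p-values measure the spread between these mice.

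Potassium channels let potassium leave the cell, which sets the resting potential and ends the electrical response. Voltage-gated channels are tetramers of pore-forming subunits that may take in silent subunits and bind cytoplasmic or membrane-spanning accessory subunits. Inward rectifiers and tandem pore-domain (K2P) leak channels hold the cell near rest, and calcium-activated channels open when calcium rises. In OSNs the odorant response opens cation and chloride channels in the cilia, and potassium channels of the soma and axon shape the spikes that carry it to the olfactory bulb.

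Across the array the mutants had less RNA of mature OSNs. Omp, the mature OSN marker, differed by -0.97 (SE 0.14, adjusted p = 0.00605 by limma) on the log2 scale. Of 22 measured genes of a mature OSN marker list of 23, 7 fell and 0 rose, all cKO arrays lay below all controls in 21, and the list mean per array was 10.87 to 11.46 in cKO and 11.94 to 12.03 in controls. The mean of 8 respiratory ciliated cell markers was 9.58 to 9.76 in cKO and 9.77 to 9.85 in controls, with 0 members called. OSN progenitor markers had means of 11.37 to 11.49 in cKO and 11.26 to 11.35 in controls, with 0 of 9 measured members called. Of 19 measured immature OSN markers 1 fell, with means of 11.74 to 11.88 in cKO and 11.88 to 11.95 in controls. In each of the 8 other marker lists the ranges of the groups overlapped and 0 members were called. The part of these cell types in the differences given here was not tested, except for the values relative to mature OSN markers near the end. Lhx2 itself differed by -0.24 (SE 0.11, adjusted p = 0.337 by limma), with all cKO arrays lowest. That cluster combines probes over all exons, and the tissue holds intact neurons and other cells, so it checks the labels only weakly. The part of each in the small difference was not tested.

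In the mucosa of cKO mice, mRNA of 6 potassium channel genes was lower and that of 1 was higher than in littermate controls. The genes that fell encode the pore-forming subunits Kcna2, Kcnh3, Kcnc4 and Kcnq1, the silent subunit Kcng1 and the accessory subunit Kcnmb3. The gene that rose, Kcnd3, encodes a pore-forming subunit of the A-type current. At an adjusted p under 0.01 by limma over all genes, the 7 genes made up 7.61% of the 92. The same call took in 2.13% of all 19928 genes, and 0.614% of the 18722 genes that encode no chemoreceptor. The genes that fell were 6.52% of potassium channel genes, 2.07% of all genes and 0.55% of genes other than chemoreceptors. The single gene that rose made up 1.09%, against 0.0602% of all genes and 0.0641% of genes other than chemoreceptors. All cKO arrays lay below all controls in 17 potassium channel genes (18.5%), compared with 8.43% of all genes and 4.51% of genes other than chemoreceptors, and above them in 7 (7.61%, compared with 3.18% and 3.39%). The median of the family was that of all genes. It was a difference of 0.03, with 37 genes below 0 and 55 above, and 0.03 over all genes. The median size of a difference, without its sign, was 0.09 in potassium channel genes and 0.06 over all genes.

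**Figure D1:**
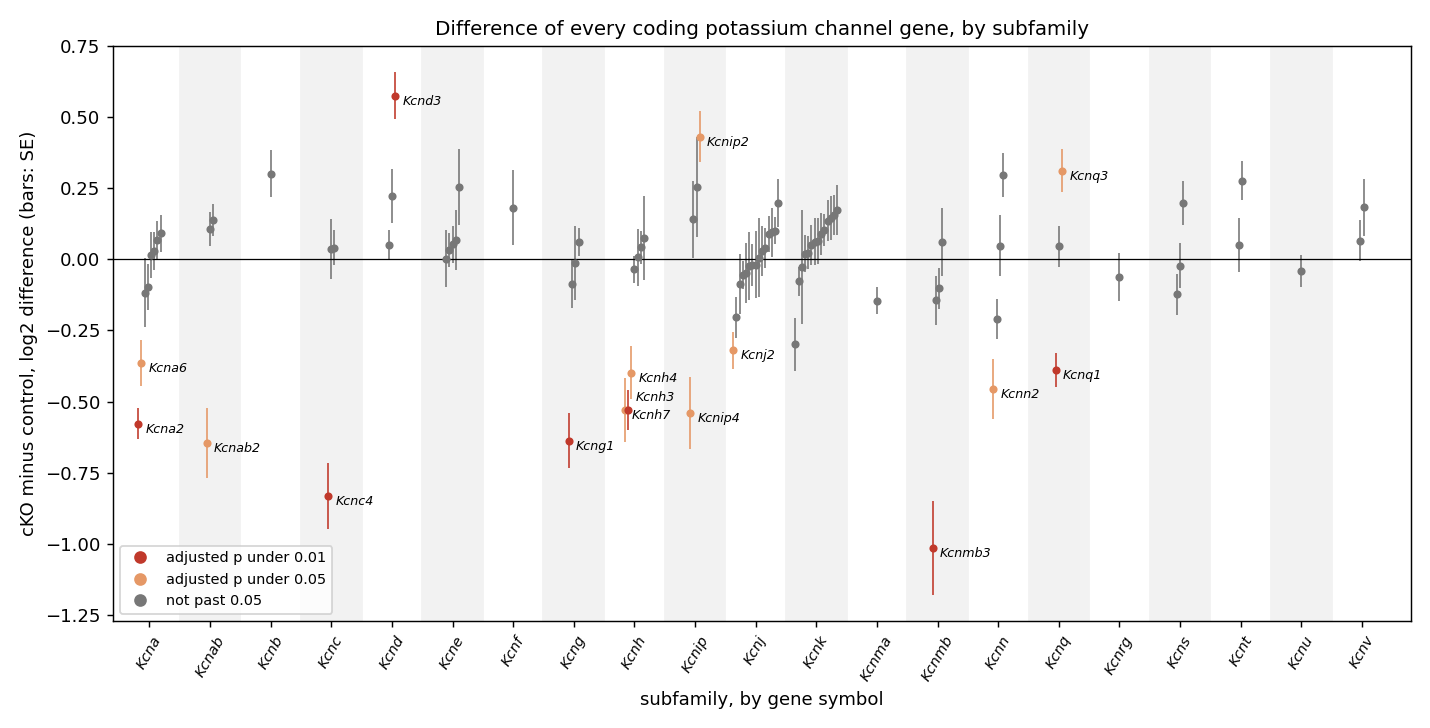
Each point is 1 of the 89 coding potassium channel genes, placed by subfamily on the horizontal axis, with its cKO minus control difference in log2 units on the vertical axis and a bar of 1 SE on each side. The 6 red points below 0 and the single red point above 0 passed an adjusted p under 0.01, and they lie in 7 of the 21 subfamilies.

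The count of calls depended on the test and on which arrays entered. By t tests, which the study's methods used, 0 genes passed after Benjamini-Hochberg adjustment. Here they were run without the study's normalization to mature OSN number, so its full procedure was not repeated. By limma 0 passed when either control genotype was used alone, where fewer arrays enter. When 1 array was left out, 5 of the 7 genes passed without cKO 2 (and Kcnab2 in addition), 4 without cKO 1, 1 without each of cKO 3, cKO 4 and controls 2, 3 and 4, and 0 without control 1. In all of these fits the 7 kept their direction, which was fixed in advance, since their cKO and control arrays did not overlap. At 0.05 each of the 7 passed in 8 of the 8 fits that left out 1 array. At an adjusted p under 0.05, 16 potassium channel genes passed (17.4%, against 5.54% of all genes and 2.23% of genes other than chemoreceptors). The 13 that were lower made up 14.1% of the family (5.17% of all genes, 1.84% of genes other than chemoreceptors) and the 3 that were higher 3.26% (0.366% and 0.39%). In all 16 the cKO and control arrays did not overlap. This is not separate support, since the genes were picked by their difference on the same arrays. The 9 genes that passed at 0.05 alone did so in 0 (Kcnq3) to 6 (Kcnab2) of the 8 fits that left out 1 array.

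The promoters of the genes that moved were set side by side, since Lhx2 is a homeodomain protein and OSN genes often carry Olf1/Ebf1-like sites. A RefSeq promoter table of GRCm38.p6 was matched by symbol to 4 of the 7 called genes, and not to Kcnh3, Kcng1 and Kcnq1. The 250 bases before the annotated start are printed 5′ to 3′ in the direction of transcription. Capitals mark the homeodomain core TAAT on either strand and the Olf1/Ebf1-like letters CCCNNGGG, which read the same on both strands. The windows are chr3:32491970-32492219 (minus strand), chr3:107458899-107459148 (minus strand), chr3:107101317-107101566 (plus strand) and chr3:105451640-105451889 (plus strand), and the first 3 belong to genes that fell.
Kcnmb3 promoter: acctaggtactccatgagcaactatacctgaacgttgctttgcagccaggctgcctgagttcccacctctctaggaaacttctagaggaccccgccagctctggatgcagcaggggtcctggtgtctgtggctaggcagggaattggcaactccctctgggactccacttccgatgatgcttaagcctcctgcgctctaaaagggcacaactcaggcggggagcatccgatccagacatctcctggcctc
Kcnc4 promoter: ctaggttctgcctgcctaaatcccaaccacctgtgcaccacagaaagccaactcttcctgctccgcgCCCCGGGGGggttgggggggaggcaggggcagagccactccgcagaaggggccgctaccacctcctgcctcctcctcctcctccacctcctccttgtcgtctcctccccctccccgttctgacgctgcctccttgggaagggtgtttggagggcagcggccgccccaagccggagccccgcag
Kcna2 promoter: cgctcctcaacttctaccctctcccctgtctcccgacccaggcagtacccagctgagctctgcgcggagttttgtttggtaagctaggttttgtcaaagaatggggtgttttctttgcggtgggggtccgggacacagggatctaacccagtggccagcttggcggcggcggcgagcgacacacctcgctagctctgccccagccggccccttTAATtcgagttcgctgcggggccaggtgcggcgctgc
Kcnd3 promoter: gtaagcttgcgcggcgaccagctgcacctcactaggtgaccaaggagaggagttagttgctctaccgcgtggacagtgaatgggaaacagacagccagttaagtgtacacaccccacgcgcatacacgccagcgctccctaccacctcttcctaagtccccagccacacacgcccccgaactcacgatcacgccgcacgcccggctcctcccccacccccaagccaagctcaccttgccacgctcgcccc

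TAAT occurred in 1 of the 4 windows, that of Kcna2, compared with 33 of the 70 potassium channel genes in the table (47.1%) and 58.5% of all 27025 genes. Some genes have more than 1 window, and the share of all 32851 windows was 54.9%. The longer TAATTA, which contains TAAT, occurred in 0 of the 70, in 5.65% of all genes and in 4.84% of all windows. CCCNNGGG occurred in 1 of the 4, as 2 overlapping matches in the Kcnc4 window. It occurred in 14 of the 70, 13.4% of all genes and 11.8% of all windows. A match is a description of the letters in this window and does not show binding.

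Among the voltage-gated pore-forming subunits, 4 of 25 fell and 1 rose. Kcna2, a delayed rectifier of the Kv1 family that is concentrated in axons, had the smallest adjusted p of all potassium channel genes. Its log2 values were 10.80, 10.68, 10.79 and 10.86 in cKO 1 to 4, and 11.33, 11.32, 11.32 and 11.47 in controls 1 to 4. The mutants lay close together and all below the lowest control. The difference was -0.58 (SE 0.06, adjusted p = 0.00196 by limma), which is 67.0% of the control level, and the second Kcna2 cluster differed by -0.55. Kcna2 passed in 7 of the 8 fits that left out 1 array, with an adjusted p of 0.0105 without control 1.

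The other 7 Kcna genes did not pass at 0.01. Kcna6, another Kv1 subunit, differed by -0.37 (SE 0.08, adjusted p = 0.0341 by limma), with values of 8.72 to 8.92 in mutants and 9.10 to 9.42 in controls. Kcna1, the neighbour of Kcna6 in the genome, differed by 0.02, with a 95% confidence interval of -0.17 to 0.20. Kcna3 and Kcna10, which lie beside Kcna2 and like Kcna1 were picked out after the values were seen, differed by 0.09 and -0.10. Farther along chromosome 3 lie Kcnc4 (-0.83), Kcnmb3 (-1.01) and Kcnd3 (0.58), which passed at 0.01. The part of location in these differences was not tested.

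Kcnc4 encodes a fast inactivating Shaw-type channel. Its values were 10.68, 10.10, 10.60 and 10.54 in cKO 1 to 4 and 11.23, 11.32, 11.34 and 11.36 in controls 1 to 4. The controls were close together, the mutants were all lower, and cKO 2 stood lowest. Kcnc4 was at 56.2% of control, a difference of -0.83 (SE 0.12, adjusted p = 0.00552 by limma). Its 2 measured relatives, Kcnc1 and Kcnc2, differed by 0.04 each.

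Of the 7 Kcnh genes, which encode the Eag, Erg and Elk channels, 1 passed at 0.01 and 3 at 0.05. Kcnh3, an Elk channel, read 10.11, 9.84, 10.13 and 10.04 in cKO 1 to 4 and 10.50, 10.62, 10.49 and 10.61 in controls 1 to 4. Again the groups did not overlap and cKO 2 was lowest. The difference was -0.53 (SE 0.07, adjusted p = 0.00482 by limma), or 69.3% of control. Kcnh7, an Erg channel, differed by -0.53 (SE 0.11, adjusted p = 0.0288), and Kcnh4, the other Elk channel past 0.05, by -0.40 (SE 0.09, adjusted p = 0.0442). Differences of the remaining Kcnh genes ran from -0.04 for Kcnh2 to 0.07 for Kcnh8.

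The Kcnq genes differed in both directions. Kcnq1, known for the slow repolarizing current of heart and the potassium conductance of epithelia, read 9.17, 9.03, 9.001 and 9.17 in cKO 1 to 4 and 9.38, 9.49, 9.50 and 9.56 in controls 1 to 4. The groups did not overlap, and here cKO 3 rather than cKO 2 was lowest. This difference of -0.39 (SE 0.06, adjusted p = 0.00761 by limma) was the smallest in size of the 7 that passed, and left 76.4% of the control level. Kcnq3, a subunit of the M-current, was higher by 0.31 (SE 0.08, adjusted p = 0.0483), but passed at 0.05 in 0 of the 8 fits that left out 1 array (differences of 0.25 to 0.35, adjusted p = 0.0594 to 0.137). Kcnq5 differed by 0.05.

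Kcnd3 was the only potassium channel gene past 0.01 that rose. It encodes a Kv4 subunit of the transient A-type current. Values were 8.20, 8.01, 8.38 and 8.31 in cKO 1 to 4 and 7.54, 7.72, 7.72 and 7.62 in controls 1 to 4, so the lowest mutant was above the highest control. The increase was 0.58 (SE 0.08, adjusted p = 0.00614 by limma), or 149.1% of control. Here cKO 2 was the mutant nearest to the controls, and without it the difference was 0.65 (adjusted p = 0.000834). The related Kv4 gene Kcnd2 differed by 0.22 (adjusted p = 0.310) and Kcnd1 by 0.05, and the noncoding Kcnd3os, which lies beside Kcnd3, by 0.08. Kcnb2, a Kv2 delayed rectifier, differed by 0.30 (SE 0.08, adjusted p = 0.0854), with all cKO arrays above all controls.

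**Figure D2:**
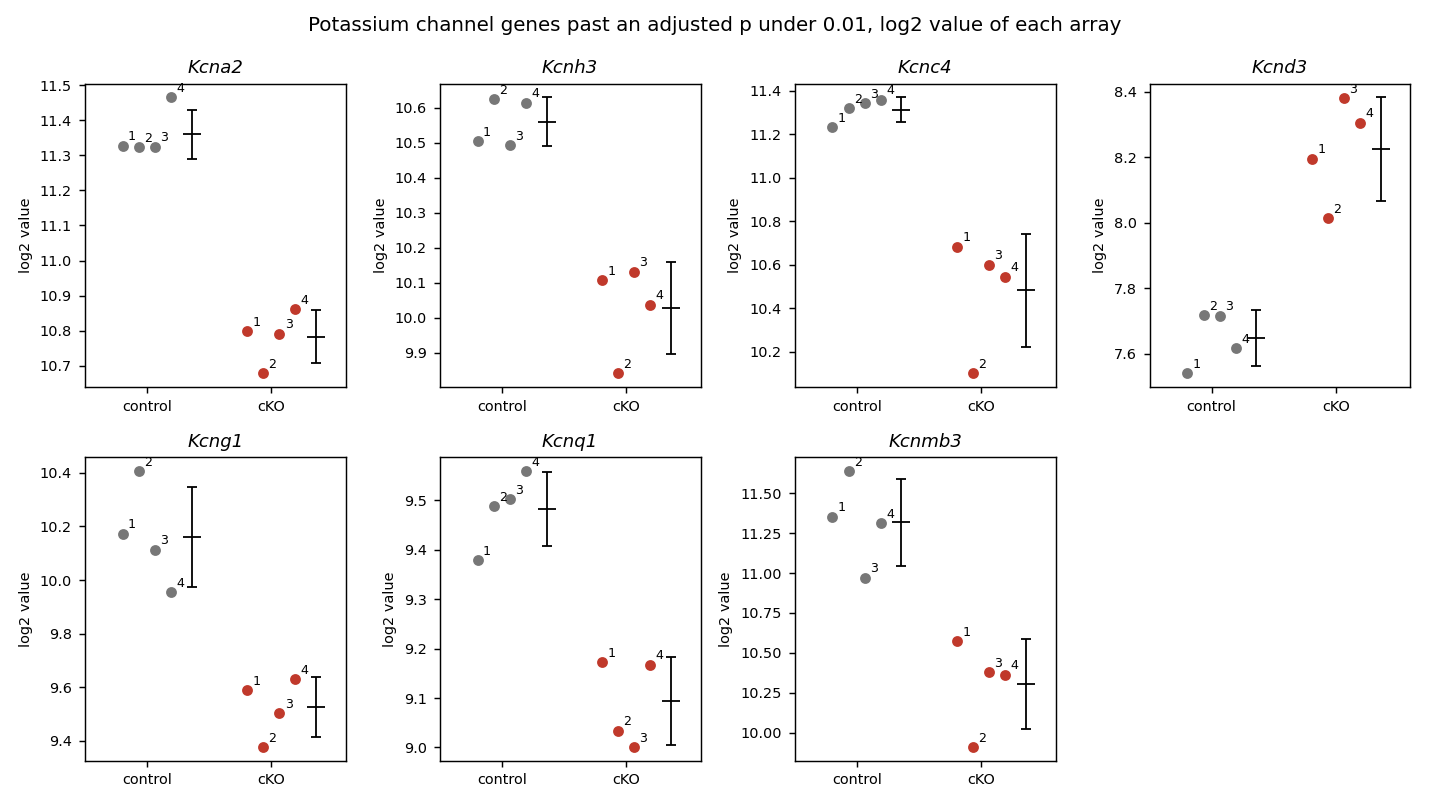
Log2 values of the 7 potassium channel genes past an adjusted p under 0.01, 1 panel each with its own vertical axis. Points are single arrays numbered 1 to 4 within the control (grey) and cKO (red) groups, and the black mark is the mean with 1 SD. In no panel do the groups overlap, and cKO 2 is the lowest mutant in all panels except that of Kcnq1.

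Silent subunits do not form channels alone and modify Kv2 channels. Of 10 such genes 1 fell, Kcng1. It read 9.59, 9.38, 9.50 and 9.63 in cKO 1 to 4 and 10.17, 10.41, 10.11 and 9.95 in controls 1 to 4. Control 4 was the closest to the mutants but still above them. The difference was -0.64 (SE 0.10, adjusted p = 0.00714 by limma), or 64.3% of control. It passed in 0 of the 8 fits that left out 1 array, where the adjusted p was 0.01001 to 0.0285, and with the title letter as a block the adjusted p was 0.0106. The other silent subunits named by rule, Kcns2 (0.20), Kcnv1 (0.18) and Kcnf1 (0.18), lay above 0 without passing, and Kcng2, Kcng3 and Kcng4 differed by 0.06, -0.09 and -0.01.

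Large-conductance calcium-activated (BK) channels have a pore encoded by Kcnma1 and beta subunits encoded by the Kcnmb genes, and of these 1 passed at 0.01. Kcnmb3 had the largest fall of the 92 genes. Its values were 10.57, 9.91, 10.38 and 10.36 in cKO 1 to 4 and 11.35, 11.64, 10.97 and 11.31 in controls 1 to 4. The mutants were all lower, with cKO 2 at the bottom, and control 3 was the lowest control. Kcnmb3 stood at 49.5% of control, a difference of -1.01 (SE 0.17, adjusted p = 0.00946 by limma). It differed by -0.70 among the letter A arrays and -1.59 among the letter B arrays, and with the letter as a block the adjusted p was 0.0138.

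The pore gene Kcnma1 differed by -0.15 (SE 0.05, adjusted p = 0.147), with all cKO arrays below the controls and a 95% confidence interval of -0.25 to -0.04, and its second cluster by -0.11. The other beta subunits Kcnmb2, Kcnmb4 and Kcnmb1 differed by -0.14, -0.10 and 0.06. No test was made between members of the family.

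Among the other calcium- and sodium-activated channels 0 passed at 0.01 (3 of 8 lower and 2 higher at an unadjusted p under 0.05, Kcnma1 included, where 9.87% of all genes were lower and 5.13% higher). Kcnn2, a small-conductance (SK) channel, differed by -0.46 (SE 0.11, adjusted p = 0.0406 by limma), Kcnn1 by -0.21 (adjusted p = 0.165) and Kcnn3 by 0.30 (adjusted p = 0.0674). Kcnt1, a sodium-activated channel, differed by 0.28 (adjusted p = 0.0521) with all cKO arrays above the controls. Kcnu1, a sperm channel gene, differed by -0.04, and by 0.01 after quantile normalization.

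No inward rectifier or leak channel gene passed at 0.01. Of 15 Kcnj genes 0 passed at 0.01 by limma (2 lower and 1 higher at an unadjusted p under 0.05, against 9.87% and 5.13% of all genes). Kcnj2, a strong inward rectifier, differed by -0.32 (SE 0.06, adjusted p = 0.0217) and Kcnj5, a G protein-gated one, by -0.20 (adjusted p = 0.203), and the rest ran from -0.09 for Kcnj16 to 0.20 for Kcnj3. Of 14 K2P genes 0 passed at 0.01 or at 0.05 (1 lower and 0 higher at an unadjusted p under 0.05), and 11 of the differences lay above 0, as did 62.3% of those of all genes. Kcnk10 had the lowest difference (-0.30, SE 0.09, adjusted p = 0.133), and Kcnk1 differed by 0.16 (adjusted p = 0.352).

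Of the 17 accessory subunit genes, Kcnmb3 alone passed at 0.01. Kcnab2, a cytoplasmic beta subunit of Kv1 channels, differed by -0.65 (SE 0.12, adjusted p = 0.0174 by limma). Without cKO 2 its difference was -0.51 but the spread shrank and the adjusted p was 0.000456. The other beta subunits Kcnab1 and Kcnab3 differed by 0.14 and 0.11. Among the Kv4-binding KChIP genes, Kcnip4 was lower (-0.54, SE 0.13, adjusted p = 0.0420) and Kcnip2 was higher (0.43, SE 0.09, adjusted p = 0.0255), while Kcnip3 and Kcnip1 differed by 0.25 and 0.14 with adjusted p-values of 0.584 and 0.712. The 5 Kcne genes, single-span partners of Kcnq and other channels, had differences from 0.00 to 0.25, highest in Kcne4, and 0.05 in Kcne1l. Kcnrg, a regulator of Kv assembly, differed by -0.06.

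**Figure D3:**
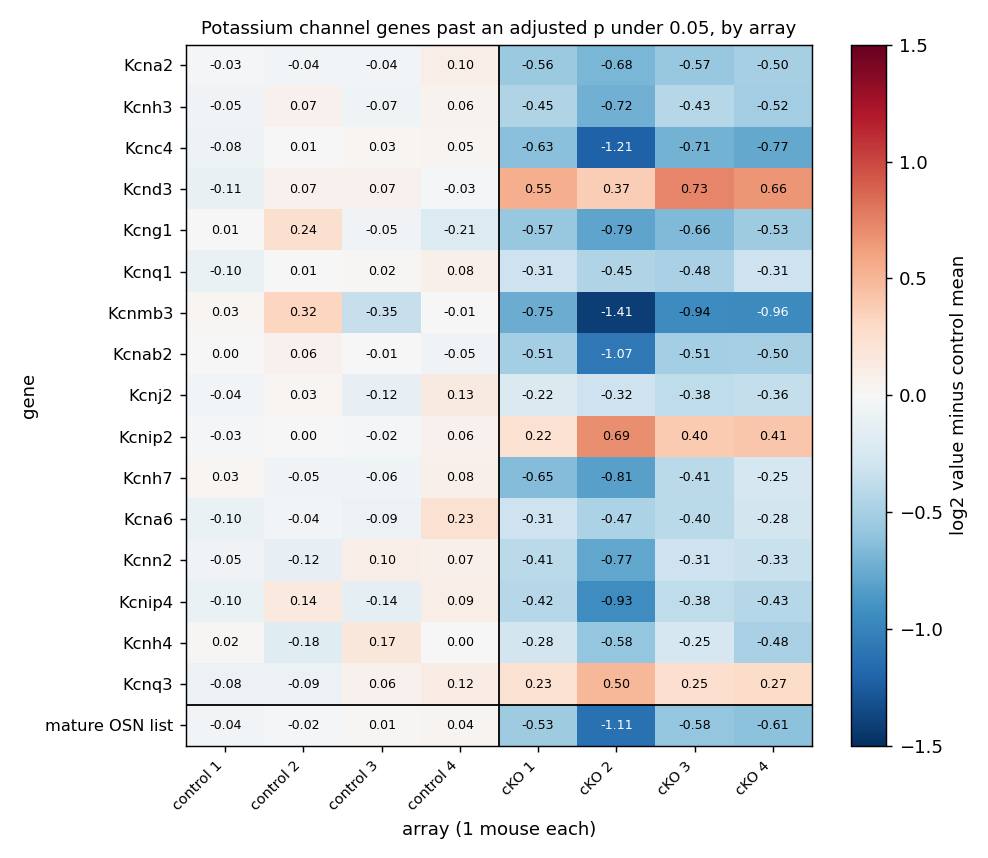
Log2 value of each array (columns) minus the control mean, for the 16 potassium channel genes past an adjusted p under 0.05 (rows) and for the mean of the mature OSN marker list (bottom row), with colour on a scale from -1.5 to 1.5. The mutant columns are negative in 13 of the gene rows and positive in 3, and cKO 2 is the most negative mutant in 11 of the 13, as it is in the marker row at -1.11.

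Array cKO 2, the only mutant with the letter B, was often the mutant farthest from the controls. Array and letter cannot be told apart here. Array cKO 2 was the lowest mutant in 11 of the 13 genes that were lower at 0.05 and the highest in 2 of the 3 that were higher, Kcnip2 and Kcnq3. These genes were picked by their change on the same arrays, and the share over all genes was not counted. On this array the mature OSN list differed from the control mean by -1.11, compared with -0.53, -0.58 and -0.61 in cKO 1, 3 and 4. Because the study's methods normalize to mature OSN number, each of the 7 genes was also taken relative to the mature OSN list mean on the same array. The groups were compared by an exact two-sided permutation test over the 70 arrangements of the 8 arrays (smallest possible p = 0.0286).

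Relative to these markers the 7 genes differed in size and direction. Kcnc4 remained lower (-0.12, exact p = 0.0286, all mutants below all controls). Kcnmb3 differed by -0.30 (exact p = 0.143), and control 3 at -1.03 was as low as the mutants. For Kcna2 (0.13, exact p = 0.257), Kcng1 (0.07, exact p = 0.600) and Kcnh3 (0.18, exact p = 0.0571) the groups overlapped. Kcnq1 was above the controls in all mutants on this scale (0.32, exact p = 0.0286), and Kcnd3 was higher by 1.29. For Kcnd3 no p is given, since it was higher in all mutants and the subtracted marker mean lower in all, so that the groups had to separate. The p-values are not adjusted over the 7 comparisons, and the genes were picked by their change on the same arrays, so these tests are not independent of that choice. With 1 array left out the smallest possible p is 0.0571. The marker list fell by 0.71 on the log2 scale and is not the published list of the study's methods. For that list the paper reports a smaller average fall in these mice. A list with a smaller fall would move each of these values down by the gap between the lists. The overlap of Kcna2, Kcnh3 and Kcng1 and the sign of Kcnq1 may therefore not hold with the published list, which was not tested.

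**Figure D4:**
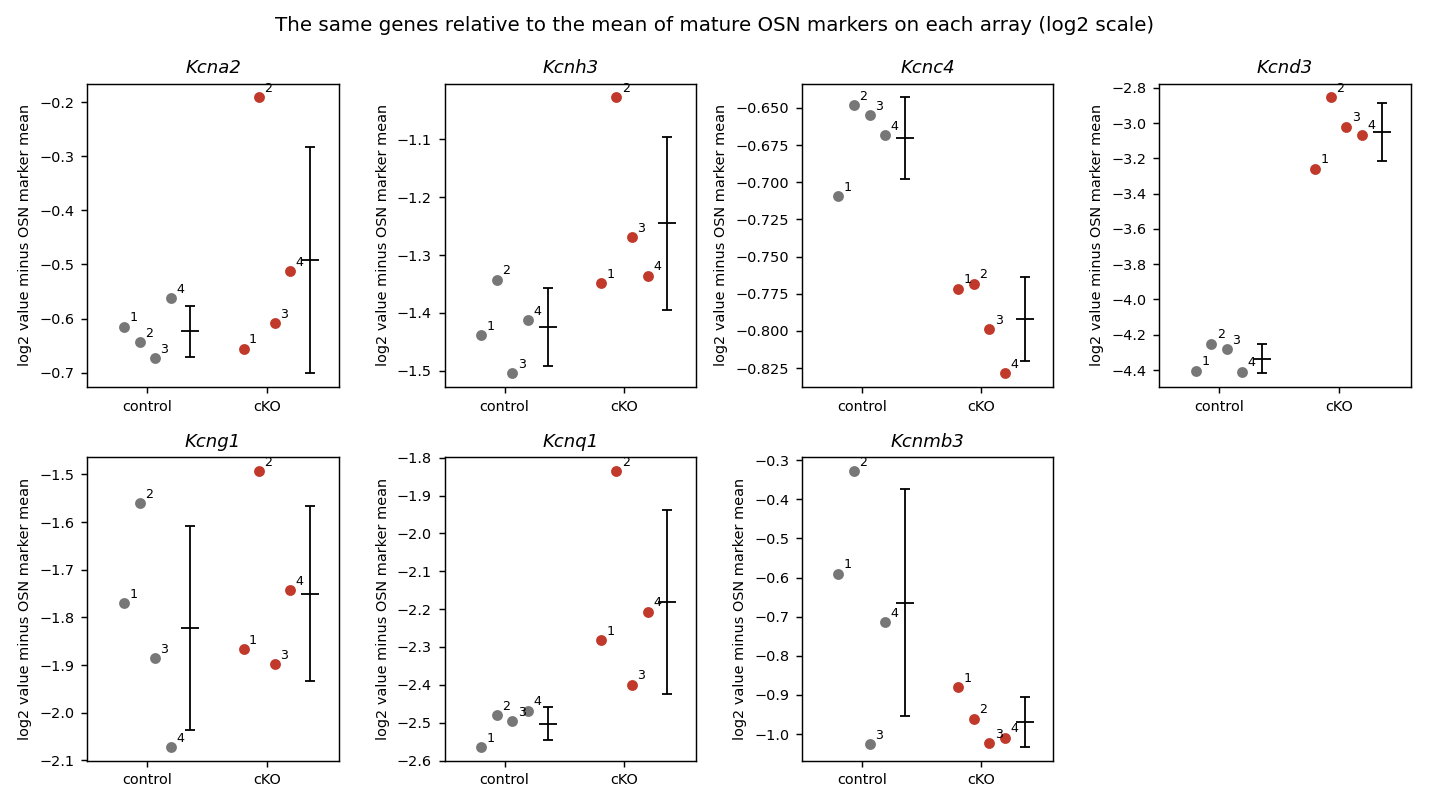
Log2 value of each of the 7 genes minus the mean of the mature OSN marker list on the same array, 1 panel per gene with its own vertical axis, arrays numbered 1 to 4 in controls (grey) and cKO (red), and the mean with 1 SD in black. The groups separate in Kcnc4 (mutants lower), Kcnq1 (mutants higher) and, as the choice of gene fixed, Kcnd3, and overlap in Kcna2, Kcnh3, Kcng1 and Kcnmb3.

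Proteins that bind or cluster potassium channels, and the hyperpolarization-activated HCN channels, were examined as partners from a list of 19 genes, of which 17 were measured. At an adjusted p under 0.01 by limma 0 passed (2 lower and 2 higher when p was under 0.05 before adjustment, against 9.87% and 5.13% of all genes). By the t tests without normalization to mature OSN number 0 passed after adjustment. Cntnap2, which clusters Kv1 channels along axons, was the 1 partner past 0.05, with a difference of 0.32 (SE 0.06, adjusted p = 0.0173), opposite in sign to that of Kcna2. The scaffold gene Dlg2 differed by -0.38 (adjusted p = 0.0876), Hcn4 by -0.31 (adjusted p = 0.0886), the BK gamma subunit gene Lrrc55 by 0.31 (adjusted p = 0.264) and the Kv4 partner Dpp6 by 0.23.

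**Figure D5:**
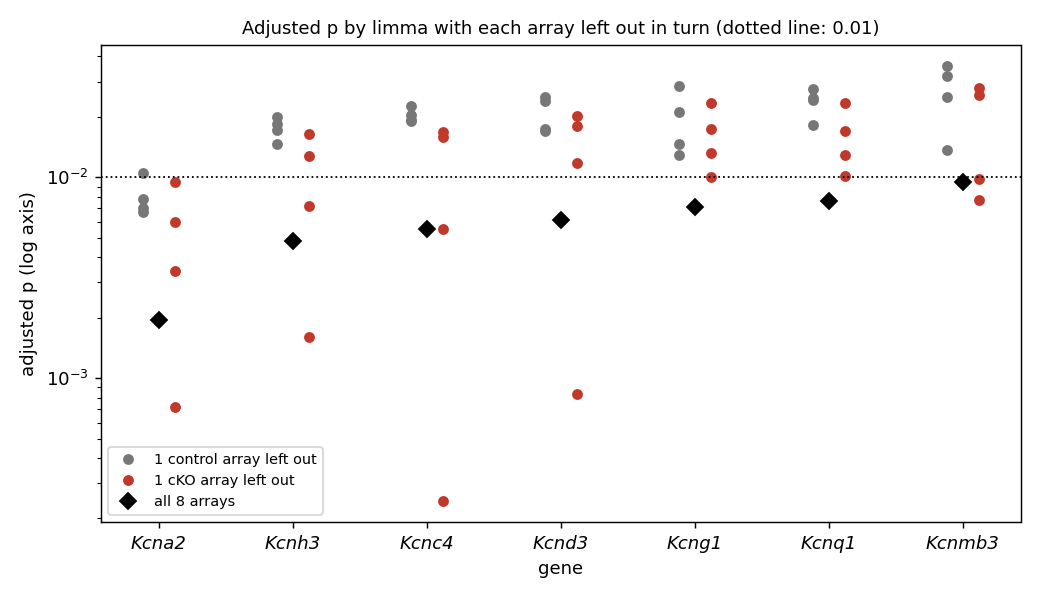
Adjusted p by limma on a log axis for the 7 genes past 0.01 (dotted line), with all 8 arrays (black diamonds) and with 1 control (grey) or 1 cKO array (red) left out. Kcna2 stays below the line in 7 of the 8 fits, and Kcng1 and Kcnq1 in 0 of them.

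The lowest mean of a potassium channel gene was 6.14 on the log2 scale, and 0 of the 92 lay below 5.37. That is the median of 166 vomeronasal receptor genes, which stand for genes with little expression in this tissue. Other such genes lie above a median, so a value above it does not show expression. Kcnu1, a sperm channel gene, read 7.30 in cKO and 7.34 in controls. Of the 92, 27 lay below the lower quartile of all genes at 7.52, and each gene that passed at 0.01 had a mean above that level. The control arrays of Kcnd3, at 7.54 to 7.72, lay close to it.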

How the data were processed

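Total RNA of olfactory mucosa was hybridised to Affymetrix Mouse Gene ST arrays. For 28312 transcript clusters the authors deposited log2 values, made with Affymetrix Expression Console per the submitters' processing notes. Of its version, background correction, summarization and normalization between arrays nothing is stated in the paper or labels. Array medians were 8.825 to 8.8325 in cKO and 8.8416 to 8.8903 in controls, so all cKO arrays lay slightly below all controls. Background signal under each log2 value compresses the change of dim genes, and the number of arrays limits the precision.

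By platform annotation 21759 clusters had 1 gene symbol, 1605 had several and 4948 had none. Clusters with several or none were left out, and the cluster with the highest mean was kept per gene, which left 19928 genes. By Entrez identifier 21668 clusters matched RefSeq (GRCm38.p6), and 0 symbols changed.

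The cKO minus control difference was tested with limma 3.58.1 (lmFit and eBayes, two-sided) in R 4.3.3 with Benjamini-Hochberg adjustment over all genes and a threshold of 0.01. Adjusted p-values come from this fit unless otherwise stated. The code was tested on simulated data. The study's methods used t tests, which were an alternative, beside a threshold of 0.05, trended robust eBayes, quantile normalization, a filter on genes under the lower quartile, the mean of clusters, the title letter as block or 1 letter at a time, array weights, each control genotype alone and each array left out. The study's methods correct for OSN number with a published set of mRNAs, and that set was not applied. The mature OSN marker list was used in another way, array by array. Its fall was larger than the average fall that the paper reports for the published list.

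Members, lists and tests were chosen with earlier results of these data known. Named were every Kcn gene with an adjusted p under 0.05, the member with the smallest p in each subfamily (and the next one where it has 5 or more members), further members by p until 25 were named, partners past 0.05, and Lhx2 and Omp. Other genes were named after their values were seen. Exact permutation tests used SciPy 1.17.1.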

Additional observations from a re-analysis of the deposited data

Results flagged for a closer look

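In 4 of the 62 groups of 4 arrays examined (30 named potassium channel genes and 1 partner, in each group), 1 array stood apart from the other three by Dixon's ratio of its gap to the group's range, which chance alone gives in about 1 of 20 groups. Control 4 had the highest Kcna2 value, 11.47 against 11.32 to 11.33 in the other controls (ratio 0.970). Array cKO 2 had the lowest value of Kcnab2, 10.31 against 10.86 to 10.87 in the other mutants (ratio 0.970), and of Kcnip4, 8.71 against 9.20 to 9.25 (ratio 0.910). It also had the highest value of Kcnq3, 9.21 against 8.95 to 8.99 (ratio 0.845). In each of the 3 mutant cases cKO 2 lay farther from the controls than the other mutants did.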

How the results depend on the processing

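The 7 genes kept their direction under all 19 alternatives tried for each. As their groups did not overlap, leaving arrays out or changing the test could not turn a direction. All 7 passed with quantile normalization and without dim genes, and 6 under trended robust eBayes, where Kcnmb3 had an adjusted p of 0.0111. With the title letter as block 7 potassium channel genes passed, 5 of them among the 7. The count was 16 (13 lower, 3 higher) at an adjusted p under 0.05. By t tests without normalization to mature OSN number it was 0 after adjustment, and 17 (13 lower, 4 higher) at an unadjusted p under 0.01. It was 0 with either control genotype alone (0 lower, 0 higher) and 3 (3 lower, 0 higher) within letter A. Those fits have fewer arrays. No count is given for letter B, which has 1 cKO array. With each array left out the count was 0 to 6 (0 to 5 lower, 0 to 1 higher). Among partners 1 gene passed at an adjusted p under 0.05 and 1 by the unadjusted test, otherwise 0. Signs turned for Kcnrg in letter A (0.016) and for Kcnu1 with quantile normalization (0.014), Lhx2(fl/+) controls only (0.014), letter B only (0.033) and without control 3 (0.0002, in a range down to -0.0715 with each array left out). The cause was not tested. Relative to mature OSN markers, the ranges with each array left out were 0.03 to 0.19 for Kcna2, 0.11 to 0.21 for Kcnh3, -0.13 to -0.11 for Kcnc4, 1.22 to 1.36 for Kcnd3, -0.01 to 0.16 for Kcng1 (below 0 without cKO 2, -0.014, or control 4, -0.012), 0.21 to 0.39 for Kcnq1 and -0.42 to -0.19 for Kcnmb3. No paired analysis was possible because the labels give the groups no shared replicate numbers. The mice came from a few litters that gave both genotypes, but the labels do not name the litter, so it could not be blocked.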
